A study of Mus musculus with 12 samples.

Results

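Of 9 mouse cell arrays taken at day 4 of differentiation, 3 carried little RNA of Kdr and 6 carried much, and the genes that went with or without Kdr across these cultures are described here. The series comprised 12 Affymetrix gene arrays, 3 in each of 4 labelled groups, and gave 1 log2 RMA signal per probe set and array. A gene is represented by its brightest probe set with a single gene symbol, which gave 19938 genes. The sets were chosen by the measured Kdr signal alone, with the division at a log2 signal of 7. The Kdr-low arrays were cardiac replicate 1 (5.42), sorted CPC replicate 2 (6.25) and sorted CPC replicate 3 (6.03). The Kdr-high arrays were spontaneous replicates 1 to 3 (9.83, 10.71 and 10.27), cardiac replicates 2 and 3 (10.81 and 9.01) and sorted CPC replicate 1 (10.23). The arrays nearest the division were sorted CPC replicate 2 below it and cardiac replicate 3 above it. The 3 day 0 arrays had Kdr signals of 5.50, 5.54 and 5.78.

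All groups derive from mouse iPSCs (induced pluripotent stem cells), that is, somatic cells reprogrammed so that they can give every germ layer. The spontaneous group held cells that had differentiated without direction for 4 days, the cardiac group held cells after 4 days of an optimized cardiac differentiation, and the sorted CPC group held cells of day 4 enriched for cardiac progenitor cells (CPCs) by flow sorting for FLK1 and PDGFRα on the surface. The day 0 group held undifferentiated iPSCs. The sources used here name no strain, genotype, sex or added agent for any group, and 2 short codes in the labels are not interpreted. Nothing in the labels says that replicates came from separate cultures, so the spread between them may be technical.

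Kdr encodes FLK1, a receptor for vascular endothelial growth factor. In the mouse embryo it appears as epiblast cells pass through the primitive streak, give up the epithelial adhesion molecule E-cadherin and spread as mesoderm. FLK1-positive mesoderm is the source of blood, endothelium and, together with PDGFRα, of cardiac progenitors.

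The division cut across the labels. Libraries labelled sorted CPC replicates 2 and 3 had Kdr signals close to those of day 0 although their cells had been sorted for FLK1. Pdgfra, the gene of the other sorting marker, was at 8.47 and 8.29 in these libraries, at 11.13 in sorted CPC replicate 1, and at 8.75, 9.14 and 8.81 at day 0. The arrays measured RNA and not the surface proteins, and the reason for the mismatch was not tested. Counts over the genes and gene lists are therefore given without these libraries further on. Sorted CPC replicate 3 stood apart in several gene lists as well. It was the highest of the 9 day 4 arrays for 12 of 20 immediate early and 11 of 23 epithelial genes. The same held for 10 of 18 collagen and matrix and 6 of 9 smooth muscle genes, but for 1 of 19 genes of hypoxia and glycolysis. Tagln, a cytoskeletal protein gene of smooth muscle, was at 10.97 there and between 6.03 and 8.74 in the other 8 day 4 arrays. Cardiac replicate 1 stood apart in genes of visceral endoderm, the extra-embryonic tissue that surrounds the epiblast, and was the highest of the 9 day 4 arrays for 14 of 17 measured. The mean signal of this list was 9.36 in cardiac replicate 1 and at most 8.34 in the other day 4 arrays. Apob, an apolipoprotein gene of that tissue, was at 10.61 in cardiac replicate 1 and at no more than 8.75 in the other day 4 arrays. Ttr, which encodes a thyroid hormone carrier, was at 11.34 there and at no more than 10.04 elsewhere. The same array was the highest for 16 of 19 genes of hypoxia and glycolysis, with a mean of 10.17 against 8.85 to 9.72 in the other day 4 arrays. The part of either group of genes in the other differences was not tested. In bulk RNA, fewer cells of a type and less RNA per cell cannot be told apart. Because a value from the same arrays chose the sets, everything that sets Kdr-low beside Kdr-high arrays is description and carries no test.

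Apart from Kdr, 641 genes (3.22% of 19937) were lower in every Kdr-low array than in every Kdr-high array, and 397 genes (1.99%) were higher in every Kdr-low array. The gap of a gene is the distance between the nearest arrays of both sets, signed as Kdr-low minus Kdr-high. A gap of at least 1 on the log2 scale was found for 9 genes lower in Kdr-low arrays (0.0451%) and for 0 genes higher in them (0%). These 9 genes were Asb4, Nrp1, Wnt5a, Cxcr4, Klhl6, Pmp22, Igfbp4, Bmper and Foxf1, in order of the gap. Among them are surface receptors and a ligand, regulators of protein turnover and growth factor availability, and a transcription factor of lateral mesoderm. The same 9 genes, and no others, had such a gap in the 6 cardiac and sorted arrays alone.

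Asb4 had the widest gap, -2.04. It encodes a substrate receptor of a ubiquitin ligase known from vascular precursors, and its probe set was 10536324. Asb4 was at 5.75, 5.92 and 5.88 in the Kdr-low arrays (cardiac replicate 1, then sorted CPC replicates 2 and 3), against 8.78, 9.35 and 8.51 in the spontaneous arrays, 9.62 and 7.97 in cardiac replicates 2 and 3, and 8.46 in sorted CPC replicate 1. Day 0 arrays held 5.43, 5.53 and 5.72, so the Kdr-low arrays lay just above the range of undifferentiated cells.

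Nrp1 (probe set 10576639) encodes neuropilin 1, a co-receptor that binds vascular endothelial growth factor together with FLK1 and also binds semaphorins. Its signals were 5.98, 6.13 and 5.46 in Kdr-low arrays, against 8.67, 9.94 and 9.76 in spontaneous arrays, 9.82 and 8.08 in cardiac replicates 2 and 3 and 8.24 in sorted CPC replicate 1. The gap was -1.95, and the Kdr-low arrays overlapped day 0, where Nrp1 was at 5.54, 4.90 and 5.89.

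Cxcr4 (probe set 10357472) encodes the receptor of the chemokine CXCL12, which guides migrating mesoderm and endoderm. Signals of 7.55, 8.01 and 7.45 in Kdr-low arrays stood against 10.45, 10.91 and 10.47 in spontaneous arrays, 10.87 and 9.72 in cardiac replicates 2 and 3 and 10.98 in sorted CPC replicate 1. Day 0 arrays were lower still, at 6.74, 6.29 and 7.06. Cxcr4 thus kept a level between day 0 and Kdr-high arrays, with a gap of -1.72 between the day 4 sets.

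The 250 bases upstream of the transcription start of these 3 genes are shown because their signals parted the arrays so widely, and that of Aass because it had the widest gap in the opposite direction. The sequences are those of RefSeq on GRCm38.p6, and capitals mark matches to the motifs named below them. Asb4 lies at chr6:5383136-5383385 on the plus strand (the first of 2 starts listed), Nrp1 at chr8:128358823-128359072 on the plus strand, Cxcr4 at chr1:128592300-128592549 on the minus strand and Aass at chr6:23132987-23133236 on the minus strand.
Asb4: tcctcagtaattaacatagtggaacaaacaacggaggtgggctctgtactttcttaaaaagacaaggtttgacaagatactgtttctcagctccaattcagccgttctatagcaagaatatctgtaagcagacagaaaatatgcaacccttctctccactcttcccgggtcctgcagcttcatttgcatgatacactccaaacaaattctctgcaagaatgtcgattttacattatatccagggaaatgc
Nrp1: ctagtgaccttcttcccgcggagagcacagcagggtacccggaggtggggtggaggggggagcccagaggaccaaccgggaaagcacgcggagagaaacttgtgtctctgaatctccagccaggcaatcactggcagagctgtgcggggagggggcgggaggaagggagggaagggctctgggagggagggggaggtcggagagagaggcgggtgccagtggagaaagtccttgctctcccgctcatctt
Cxcr4: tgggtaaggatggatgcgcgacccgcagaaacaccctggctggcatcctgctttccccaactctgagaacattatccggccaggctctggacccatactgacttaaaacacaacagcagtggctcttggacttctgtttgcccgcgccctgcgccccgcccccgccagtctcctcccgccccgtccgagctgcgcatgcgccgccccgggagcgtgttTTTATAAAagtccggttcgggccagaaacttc
Aass: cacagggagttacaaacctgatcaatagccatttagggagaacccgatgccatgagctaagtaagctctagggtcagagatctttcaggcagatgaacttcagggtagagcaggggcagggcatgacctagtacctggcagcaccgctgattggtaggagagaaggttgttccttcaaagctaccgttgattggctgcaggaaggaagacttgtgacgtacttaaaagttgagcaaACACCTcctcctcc
Searched on both strands were a GATA motif (AGATAA), an E-box of the SNAI and ZEB type (CACCTG), a T-box motif (AGGTGT) and a TATA box (TATAAA), chosen with the data known. Asb4 and Nrp1 held none of these letters in the window. Cxcr4 held overlapping TATA boxes on both strands, which began at -32 and -30 from the start. Aass held 1 T-box match on the minus strand, beginning at -14. The windows of Syt9 and Gadd45a, next after Aass by gap, were searched too and held no match. Wnt5a, whose gap was slightly wider than that of Cxcr4, had no entry among the upstream sequences. Over 32851 upstream windows of the same length, the GATA letters occurred in 9.99%, the E-box in 17.2%, the T-box in 11.8% and the TATA box in 12.4%.

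Wnt5a, a secreted WNT ligand that drives cell movement during mesoderm outgrowth, had a gap of -1.73 (probe set 10413482). Kdr-low arrays held 5.65, 5.73 and 5.30, against 8.29, 9.35 and 9.15 in spontaneous arrays, 8.87 and 7.46 in cardiac replicates 2 and 3 and 9.05 in sorted CPC replicate 1. Its Kdr-low values reached down below the lowest day 0 array, which was at 5.72. Klhl6 (probe set 10438445), an adaptor of a ubiquitin ligase best known from B lymphocytes, was at 4.88, 6.34 and 5.93 in Kdr-low arrays and at 8.03 to 9.43 in Kdr-high arrays (median 9.02). Pmp22, a membrane protein gene known from myelin, ranged from 7.10 to 8.40 in Kdr-low arrays and from 9.63 to 11.84 in Kdr-high arrays (median 10.75). Sorted CPC replicate 3 was the highest Kdr-low array for Pmp22, sorted CPC replicate 2 for Klhl6.

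Igfbp4, Bmper and Foxf1 completed the 9 genes. Igfbp4 encodes a binding protein of insulin-like growth factors and was at 6.92, 7.05 and 7.18 in Kdr-low arrays, at 8.38 to 9.19 in Kdr-high arrays and at 7.71 to 9.02 at day 0. It was the member of the 9 for which Kdr-high arrays resembled day 0 and Kdr-low arrays lay below it. Bmper, which binds BMP ligands outside the cell, was at 6.61 to 7.39 in Kdr-low and at 8.40 to 9.66 in Kdr-high arrays. Foxf1, a forkhead transcription factor of lateral plate mesoderm, was at 6.91, 6.68 and 6.77 in Kdr-low arrays and at 7.92 to 10.44 in Kdr-high arrays. Day 0 arrays had 7.08, 6.97 and 6.95, above all 3 Kdr-low arrays for Foxf1. Prdm6 (gap -0.99), Rgs5 (-0.99) and Rftn1 (-0.95) followed just under a gap of 1. Prdm6 encodes a chromatin regulator of smooth muscle, Rgs5 a brake on G protein signalling in pericytes and Rftn1 a lipid raft protein.

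**Figure D1:**
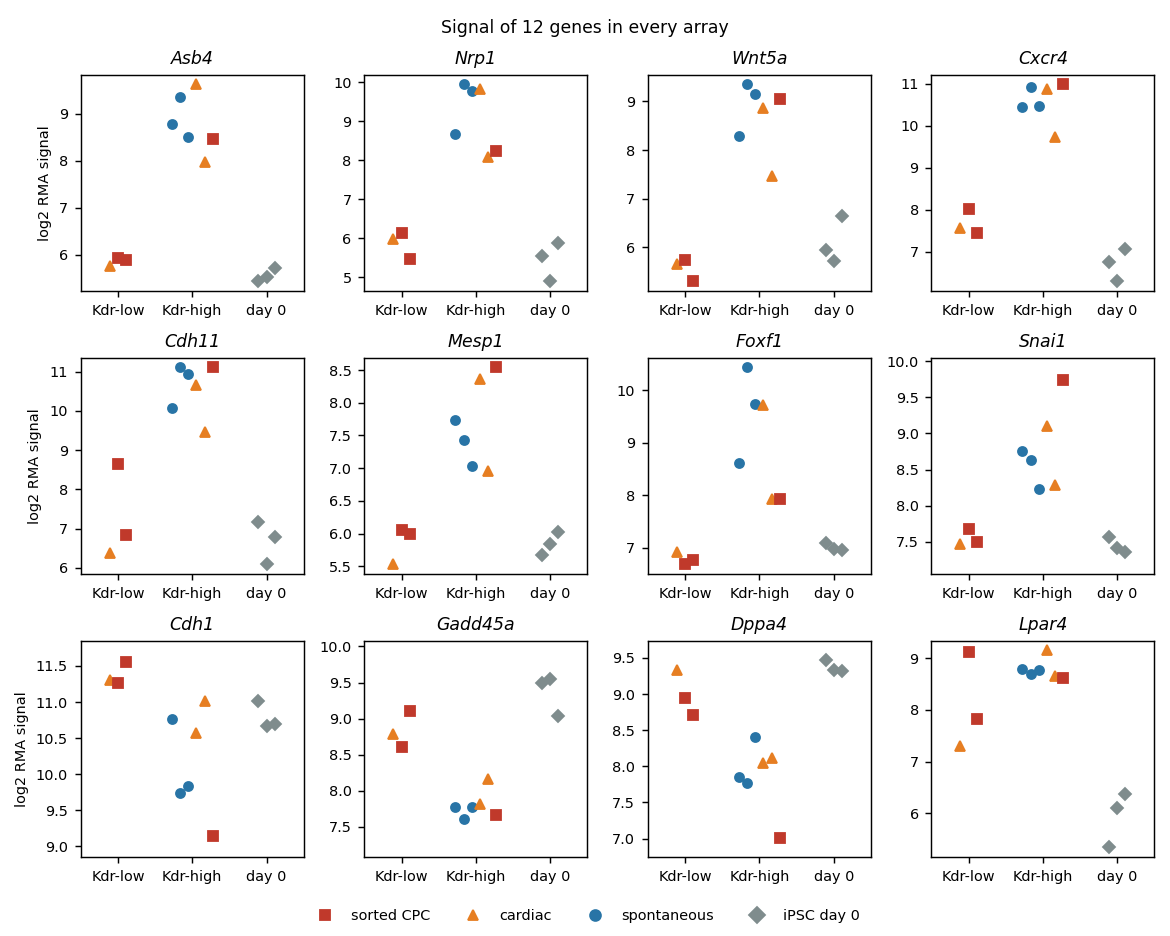
Log2 RMA signal of 12 genes (y axis of each panel) in the Kdr-low, Kdr-high and day 0 arrays, 1 symbol per array and 1 colour per labelled group. For Asb4 the 3 Kdr-low arrays sit at 5.75 to 5.92 beside day 0 and the 6 Kdr-high arrays at 7.97 to 9.62, whereas Lpar4 is above day 0 in all 9 day 4 arrays.

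Genes that were higher in the Kdr-low arrays had narrower gaps. The widest belonged to Aass, a mitochondrial enzyme of lysine breakdown, at 6.74, 6.38 and 6.54 in Kdr-low arrays and at no more than 5.86 (median 5.33) in Kdr-high arrays. Its gap was 0.52. Next came Syt9, a calcium sensor of vesicle release, with 7.77, 7.85 and 7.90 in Kdr-low arrays against 6.90 to 7.32 in Kdr-high arrays. Gadd45a, a growth arrest and DNA damage gene, was at 8.79, 8.61 and 9.10 in Kdr-low arrays, at 7.61 to 8.17 in Kdr-high arrays and at 9.49, 9.55 and 9.04 at day 0. The other 9 of the 12 widest gaps belonged to Zfp462, Slc35f2, Cgn, Slc17a9, Slc7a7, Cyp2j13, Atf3, Shfl and Fcho1, with gaps between 0.35 and 0.43. Cgn encodes the tight junction protein cingulin, Slc7a7 an amino acid transporter subunit and Atf3 a stress-induced transcription factor. Atf3 was highest in sorted CPC replicate 3, at 9.21, and lay at 7.95 and 7.91 in the other Kdr-low arrays and at 7.13 to 7.54 in Kdr-high arrays.

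Over the 9 arrays the genes whose profile ran closest to Kdr were Klhl6, Wnt5a, Nrp1, Cdh11 and Asb4. The measure was the root mean square difference from Kdr after each gene was centred on its own mean, which came to 0.57, 0.62, 0.67, 0.67 and 0.69 log2 units. A flat profile would lie 2.07 from Kdr. Profiles nearest to the mirror image of Kdr were Slc7a3 (1.38), Cldn4 (1.39), Car4 (1.40), Gadd45b (1.44) and Utf1 (1.45), each farther from the mirror than Klhl6, Wnt5a, Nrp1, Cdh11 and Asb4 were from Kdr. The mirror genes encode an amino acid transporter, a tight junction protein, a carbonic anhydrase, a stress gene and a chromatin factor of pluripotent cells.

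Gene lists of pathways and cell types were compared by the number of members without overlap between the sets, beside shares of 3.22% lower and 1.99% higher over all genes, and by the median difference of set medians, which was -0.01 over all genes. Of 18 measured genes of mesenchyme and epithelial-mesenchymal transition, 10 were lower in every Kdr-low array and 0 higher, with a median difference of -0.68. Cdh11, a mesenchymal cadherin, was at 6.39, 8.66 and 6.85 in Kdr-low arrays and at 9.46 to 11.11 in Kdr-high arrays. Cdh2, the N-cadherin gene, was at 8.09, 9.06 and 6.24 in Kdr-low arrays, against 9.72 to 11.10. Fn1, which encodes the matrix protein fibronectin, was at 9.51 to 10.58 in Kdr-low and at 11.19 to 12.52 in Kdr-high arrays. Vim, an intermediate filament of mesenchyme, was at 9.49 to 10.10 in Kdr-low arrays, against 10.57 to 11.97. Sorted CPC replicate 2 was the highest Kdr-low array for Cdh11, Cdh2 and Fn1.

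Genes of epithelium ran the other way. Of 23 measured, 5 were higher in every Kdr-low array and 0 lower, with a median difference of 0.30. Cdh1, the gene of E-cadherin, was at 11.30, 11.27 and 11.56 in Kdr-low arrays. Kdr-high arrays held 10.77, 9.74 and 9.84 (spontaneous), 10.57 and 11.02 (cardiac) and 9.14 (sorted CPC replicate 1), and day 0 arrays 11.01, 10.67 and 10.70. The Cdh1 gap of 0.25 was small, with cardiac replicate 3 the nearest Kdr-high array. Epcam and Ocln, an adhesion molecule and a tight junction protein, had gaps of 0.16 and 0.18, Grhl2 and Esrp1, a transcription factor and a splicing factor of epithelia, gaps of 0.12 and 0.05. The 18 other members, among them the keratins Krt8 and Krt18, overlapped between the sets.

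Transcription factors and signals of the primitive streak were lower in Kdr-low arrays for 7 of 18 measured genes and higher for 1, Fgf17. The median difference, -1.20, was the lowest of the lists described here. Mesp1, which marks the earliest cardiac mesoderm, was at 5.53, 6.06 and 5.99 in Kdr-low arrays, at 6.96 to 8.54 (median 7.58) in Kdr-high arrays and at 5.67, 5.84 and 6.03 at day 0. Snai1, a repressor of E-cadherin, was at 7.47, 7.68 and 7.50 in Kdr-low arrays, against 8.23 to 9.74. Mixl1, a homeobox gene of the streak, was at 6.22, 10.35 and 7.52 in Kdr-low arrays and at 10.48 to 12.11 in Kdr-high arrays. For Mixl1 sorted CPC replicate 2 thus lay within 0.13 of the lowest Kdr-high array, while cardiac replicate 1 was near the day 0 arrays. Eomes, a T-box gene of the streak, overlapped between the sets, with 8.48, 10.34 and 8.60 in Kdr-low arrays against 10.33 to 11.50. Every day 4 array was above day 0 for Eomes (6.10 to 6.97).

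Lateral plate and cardiogenic genes were lower in Kdr-low arrays for 9 of 24 measured and higher for 0, with a median difference of -0.61. Besides Foxf1, Isl1 was at 5.75, 5.79 and 5.76 in Kdr-low arrays and at 6.27 to 7.12 in Kdr-high arrays. Isl1 encodes a LIM-homeodomain factor of the second heart field, and its Kdr-low values lay within the day 0 range of 5.74 to 5.86. Fgf10, a growth factor of that field, was at 6.28 to 6.89 in Kdr-low and at 7.48 to 9.15 in Kdr-high arrays. The cardiac transcription factor genes Gata4, Gata6, Hand1, Tbx5 and Nkx2-5 overlapped between the sets. Gata4 was at 9.88 in cardiac replicate 1, at 8.66 and 8.65 in sorted CPC replicates 2 and 3 and at 9.47 to 9.87 in Kdr-high arrays. Gata6 was at 9.62, 8.81 and 8.69 in the same Kdr-low arrays, against 9.30 to 10.20. For Gata4 and Gata6 the sorted CPC replicates 2 and 3 thus lay below every Kdr-high array, and cardiac replicate 1 alone did not. Pdgfra, a member of this list, did not overlap but its gap was only -0.17, since cardiac replicate 1 had 9.42 and cardiac replicate 3 had 9.60.

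Among 28 genes of BMP and TGF-beta signalling, 11 were lower in every Kdr-low array and 0 higher, with a median difference of -0.63. The ligand gene Bmp5 was at 5.30 to 5.55 in Kdr-low and at 5.83 to 8.43 in Kdr-high arrays. Tgfb1, another ligand gene, was at 6.92 to 7.48 in Kdr-low arrays, against 8.09 to 9.28. Smad1, which carries the BMP signal to the nucleus, was at 7.69 to 8.53 in Kdr-low arrays and at 8.92 to 10.11 in Kdr-high arrays. The BMP-responsive homeobox genes Msx1 and Msx2 had gaps of -0.81 and -0.71. Id1, Id2 and Id3, which are also BMP-responsive, overlapped between the sets.

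WNT genes were lower for 7 of 27 and higher for 0, with a median difference of -0.20. Wnt3, a ligand needed to form the streak, was at 6.19 to 7.35 in Kdr-low arrays, against 7.71 to 8.69. Rspo3, which amplifies WNT signals, and the transcription factor genes Lef1 and Sp5 had gaps of -0.32, -0.21 and -0.35. Axin2, a widely used WNT target, and Dkk1, a secreted inhibitor, overlapped.

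The pathway of Kdr itself was represented by 10 ligand and receptor genes, of which 3 were lower in every Kdr-low array. Beside Nrp1 these were Nrp2 (6.50 to 6.67 in Kdr-low and 7.11 to 8.74 in Kdr-high arrays) and Plxnd1 (6.19 to 6.33 against 6.55 to 7.31), which encode the other neuropilin and a semaphorin receptor of vessels. Flt1, a decoy receptor for the same ligand, overlapped, at 7.72 to 7.95 in Kdr-low and 7.35 to 8.60 in Kdr-high arrays. The ligand gene Vegfa overlapped too, with medians of 8.87 in Kdr-low and 7.92 in Kdr-high arrays.

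Of 20 measured endothelial and haemogenic genes, 3 were lower in every Kdr-low array (Etv2, Fli1 and Gata2) and 0 higher. This was a larger share than the 3.22% lower over all genes. The other 17 overlapped, and the median difference was 0.02. Etv2, a transcription factor that commits mesoderm to blood and endothelium, was at 6.30, 6.29 and 6.60 in Kdr-low arrays and at 6.97 to 8.48 in Kdr-high arrays. Cdh5 and Pecam1, adhesion genes of formed endothelium, overlapped between the sets, and Pecam1 was highest at day 0 (7.81 to 8.85). Of 11 blood genes, 0 separated the arrays in either direction, a count near the shares over all genes.

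Pluripotency genes had higher medians in Kdr-low arrays, but few of the naive ones separated the sets. Of 15 core genes, 5 were higher in every Kdr-low array and 0 lower, with a median difference of 0.47. Dppa4, a chromatin factor of pluripotent cells, was at 9.34, 8.95 and 8.71 in Kdr-low arrays, at 7.01 to 8.41 in Kdr-high arrays and at 9.47, 9.33 and 9.32 at day 0. Gdf3, a TGF-beta family ligand, was at 8.66 to 9.55 in Kdr-low and at 6.22 to 8.40 in Kdr-high arrays. Pou5f1, which encodes OCT4, was at 10.80 to 11.37 in Kdr-low arrays and at 9.80 to 10.75 in Kdr-high arrays, a gap of 0.05. Nanog and Sox2 overlapped between the sets and were below day 0 in all 9 day 4 arrays. Of the 16 genes of naive pluripotency 1 was higher and 1 lower in every Kdr-low array, with a median difference of 0.54.

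Stress genes followed the division in part. Of 20 immediate early and dissociation genes 2 were higher in every Kdr-low array (Atf3 and Jund) and 0 lower, with a median difference of 0.56. Fos was at 6.88, 8.84 and 8.41 in Kdr-low arrays and at 6.37 to 8.30 in Kdr-high arrays, where sorted CPC replicate 1 was the highest. Egr1 was at 8.38, 8.47 and 8.09 in sorted CPC replicates 2, 3 and 1 and at 6.54 to 7.27 in unsorted day 4 arrays. Fosb was at 8.59, 7.10 and 7.90 in the same sorted arrays and at 6.27 to 6.50 in unsorted ones. Sorted arrays made up 2 of 3 Kdr-low and 1 of 6 Kdr-high arrays, so sorting and the division are partly confounded in this list. The part of sorting was not tested. Of 14 heat shock and unfolded protein genes 3 were higher in every Kdr-low array, with gaps of at most 0.05. The part that stress had in the other differences was not tested. Markers of fibroblasts or feeder cells were lower for 1 and higher for 1 of 15, smooth muscle genes higher for 1 of 9, and visceral endoderm genes separated in 0 of 17, although cardiac replicate 1 was far above the rest for many of them. Genes of hypoxia and glycolysis (19), of cholesterol and fatty acid synthesis (16) and of the respiratory chain (15) each had 0 members that separated the arrays. Counts of 0 in lists of this size are near the shares over all genes, 3.22% lower and 1.99% higher.

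**Figure D2:**
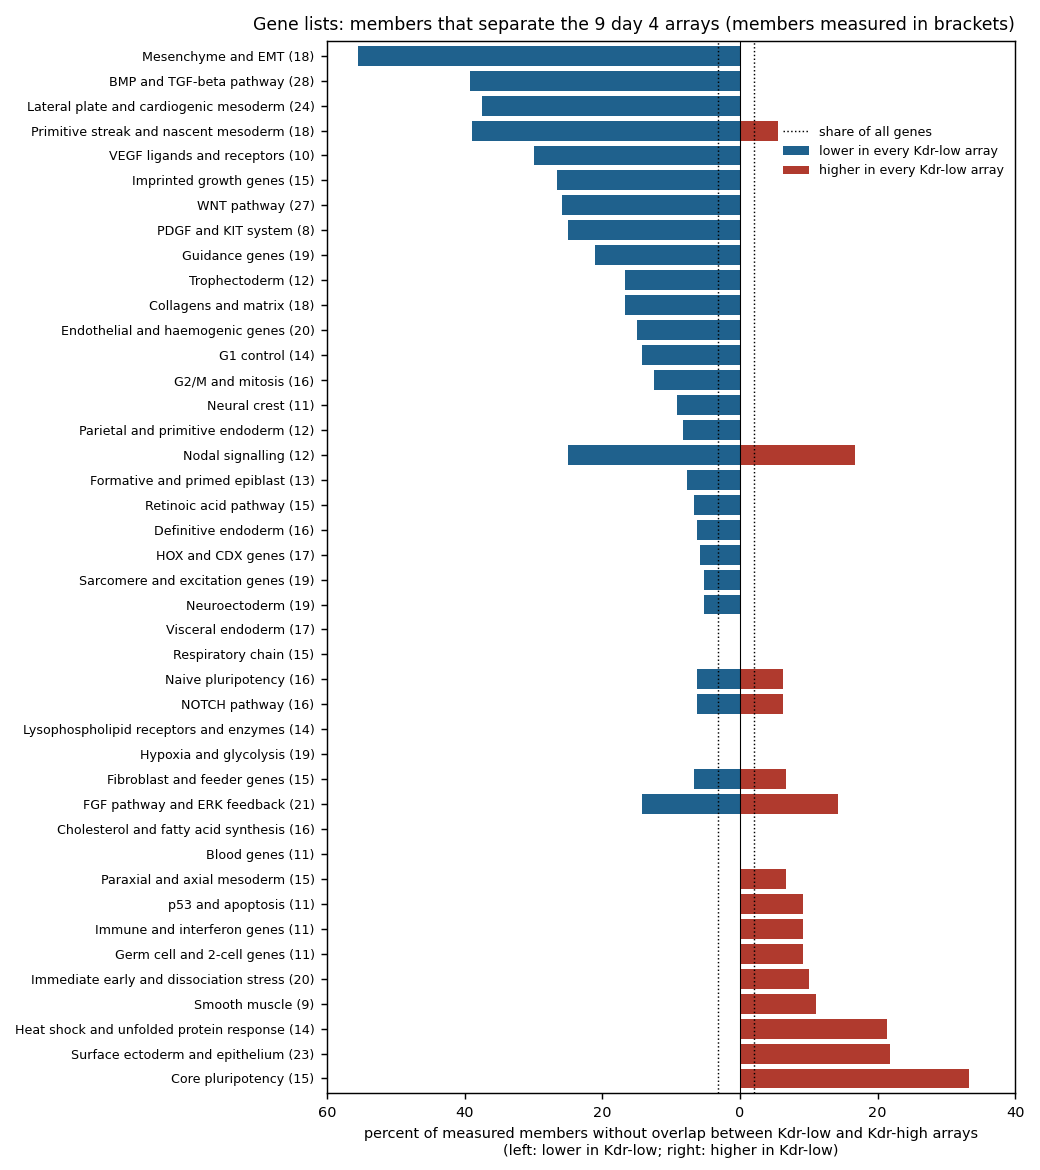
Percent of the measured members of each gene list (x axis) that were lower (left, blue) or higher (right, red) in every Kdr-low array than in every Kdr-high array; dotted lines show the shares over all genes, 3.22% lower and 1.99% higher. Mesenchyme and EMT stands highest on the left with 10 of 18 members and core pluripotency on the right with 5 of 15.

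The division was also examined within each labelled group. Cardiac replicate 1 was lower by at least 1 than both other cardiac arrays for 105 genes (0.527%) and higher for 124 (0.622%). Sorted CPC replicates 2 and 3 were both lower by at least 1 than sorted CPC replicate 1 for 106 genes (0.532%) and higher for 194 (0.973%). With any gap the cardiac numbers were 6010 lower (30.1%) and 5949 higher (29.8%), and the sorted numbers 6784 lower (34%) and 4641 higher (23.3%). Of the genes lower by at least 1 in Kdr-low arrays 44 were common to both divisions, 41.9% of the cardiac and 41.5% of the sorted list. Of those higher 13 were common, 10.5% of the cardiac and 6.7% of the sorted list. Opposite directions were found for 8 genes lower in cardiac replicate 1 and higher in sorted CPC replicates 2 and 3, and for 0 genes the other way round. These 8 were 7.6% of the cardiac lower list and 4.1% of the sorted higher list, not far below the shares of the 13 common higher genes. The 44 common lower genes included the streak genes Mixl1, Mesp1, Eomes, Lhx1, Wnt3 and Sp5, the cadherins Cdh2 and Cdh11, and Aplnr, a receptor gene of migrating mesoderm. Among the 13 common higher genes were Utf1, Dppa4 and Dnmt3l, all known from pluripotent or germ cells, and Cdh3, the P-cadherin gene of epithelia.

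**Figure D3:**
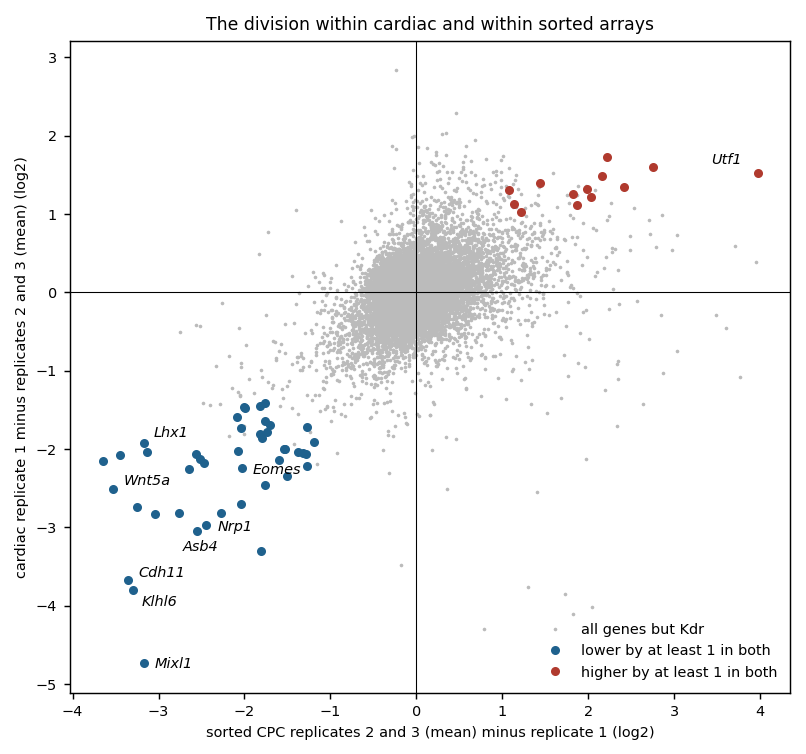
Log2 difference of sorted CPC replicates 2 and 3 (mean) from replicate 1 (x axis) against that of cardiac replicate 1 from replicates 2 and 3 (mean, y axis), 1 point per gene. The 44 blue genes were lower and the 13 red genes higher by at least 1 in the Kdr-low arrays of both groups, and Mixl1 lies lowest.

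With sorted CPC replicates 2 and 3 left out, cardiac replicate 1 stood alone against the 6 Kdr-high arrays, and 74 genes (0.371%) were lower and 101 (0.507%) higher by at least 1. The 9 genes named above are among those lower by construction, since a gap can only widen when arrays are left out, and their gaps then ran from -1.01 for Bmper and Foxf1 to -3.14 for Klhl6. The arrays that bounded the gap were often the same. Sorted CPC replicate 2 was the highest Kdr-low array for 390 of the 641 lower genes (60.8%), and cardiac replicate 3 the lowest Kdr-high array for 387 (60.4%). Without cardiac replicate 3, 29 genes were lower by at least 1, and without sorted CPC replicate 2 the number was also 29.

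The gene lists differ in how far they rest on single libraries. Without sorted CPC replicates 2 and 3, 3963 genes (19.9%) were lower and 3422 (17.2%) higher in cardiac replicate 1 than in every Kdr-high array, so the list counts stand against a much larger background. Lower genes then numbered 16 of 18 for mesenchyme, 15 of 18 for the streak, 16 of 24 for lateral plate and cardiogenic mesoderm and 19 of 28 for BMP and TGF-beta signalling, with median differences of -0.83, -1.73, -0.57 and -0.67. Higher genes numbered 12 of 23 for epithelium, 9 of 15 for core and 9 of 16 for naive pluripotency, with medians of 0.37, 0.46 and 0.74. Visceral endoderm genes were then higher for 15 of 17 (median 1.67) and genes of hypoxia and glycolysis for 17 of 19 (median 0.77), both of which had 0 separating members over all 9 arrays. The immediate early genes had 5 of 20 higher and 4 lower, with a median of 0.06 in place of 0.56.

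Without cardiac replicate 1 the Kdr-low set consisted of sorted CPC replicates 2 and 3 alone. In all, 979 genes (4.91%) were then lower and 792 (3.97%) higher than in every Kdr-high array, with 10 (0.0502%) and 0 at a gap of at least 1. Mesenchyme had 10 of 18 lower, the streak 7 of 18, lateral plate and cardiogenic mesoderm 11 of 24 and BMP and TGF-beta signalling 13 of 28, with medians of -0.60, -1.03, -0.50 and -0.51. Epithelium had 5 of 23 higher and core pluripotency 5 of 15, with medians of 0.26 and 0.55, and naive pluripotency 1 of 16 (median 0.29). Immediate early and dissociation genes were higher for 10 of 20, against 2 of 20 with cardiac replicate 1 included. Visceral endoderm and hypoxia genes again had 0 that separated, with medians of 0.01 and -0.14.

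Across all genes the Kdr-low arrays were no closer to each other than to some Kdr-high arrays. The root mean square log2 difference between arrays was 0.340 to 0.475 among Kdr-low arrays, 0.247 to 0.591 between Kdr-low and Kdr-high arrays and 0.161 to 0.465 among Kdr-high arrays. Cardiac replicate 3 was the nearest array to each Kdr-low array, at 0.306 from cardiac replicate 1, 0.247 from sorted CPC replicate 2 and 0.371 from sorted CPC replicate 3. Cardiac replicate 1 alone was 0.306 to 0.526 from Kdr-high arrays and 0.414 to 0.428 from day 0. Day 0 arrays were 0.414 to 0.486 from Kdr-low and 0.408 to 0.606 from Kdr-high arrays.

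**Figure D4:**
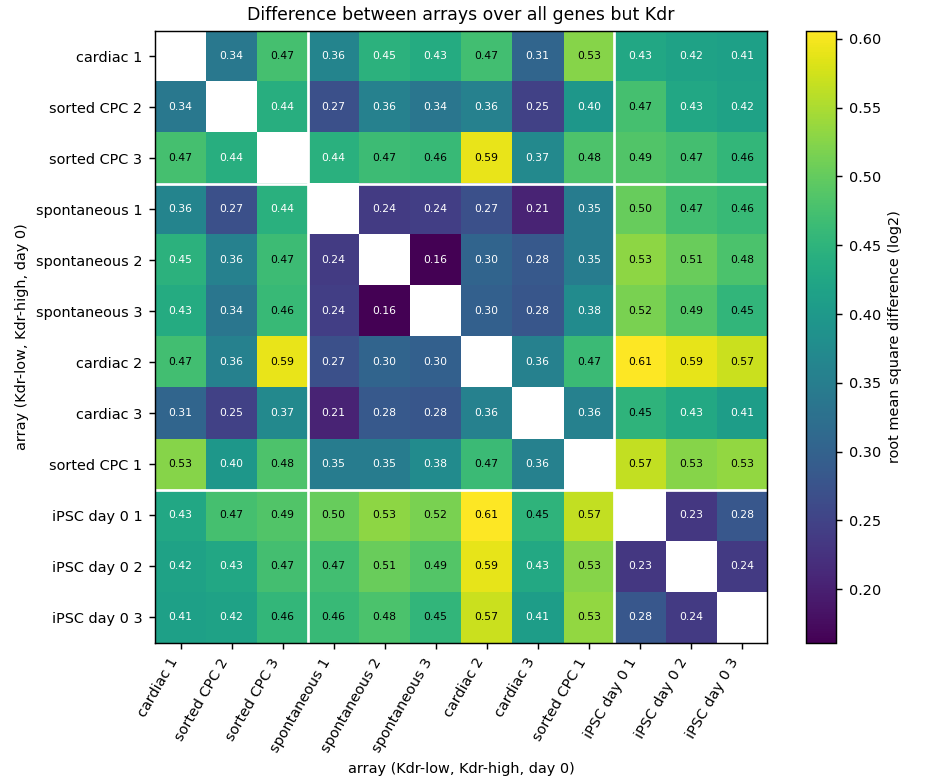
Root mean square log2 difference over all genes but Kdr for each pair of arrays (both axes: 3 Kdr-low, 6 Kdr-high and 3 day 0 arrays, separated by white lines; colour and printed value give the difference). The pair sorted CPC 2 and cardiac 3 lies at 0.247 across the division, closer than any pair of Kdr-low arrays.

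Set beside day 0, 299 of the 641 lower genes had Kdr-low arrays that overlapped day 0 and Kdr-high arrays that all lay above it. Another 128 had both sets above day 0, and 121 had both overlapping it. In 81 the Kdr-low arrays were below day 0 and the Kdr-high arrays overlapped it. Of the 397 higher genes, 143 had Kdr-low arrays overlapping day 0 and Kdr-high arrays below it, and 92 had Kdr-low arrays above day 0 and Kdr-high arrays overlapping it. Gadd45a and Dppa4 were of the first kind and Aass and Cdh1 of the second. Without sorted CPC replicates 2 and 3 the most frequent pattern was another one. Cardiac replicate 1 was then below day 0 and the Kdr-high arrays overlapped it for 1503 of the 3963 lower genes, against 565 with cardiac replicate 1 within day 0 and Kdr-high arrays above. Of the 3422 higher genes 1480 had cardiac replicate 1 above day 0 and Kdr-high arrays overlapping it. Set size alone favours this change of pattern, since 1 array falls outside the day 0 range more readily than 3 arrays together. Without cardiac replicate 1, 328 of the 979 lower genes had Kdr-low arrays overlapping day 0 and Kdr-high arrays above it.

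The spontaneous and day 0 arrays allowed a test, since they took no part when the 6 cardiac and sorted arrays alone were used to choose genes. These groups differ by 4 days of differentiation as well as in Kdr. Going with Kdr and leaving the undifferentiated state therefore cannot be told apart in this test. In those 6 arrays 904 genes (4.53%) were lower and 578 (2.9%) higher in every Kdr-low array. Spontaneous was then compared with day 0 by limma (3 arrays each), and a gene was called at a Benjamini-Hochberg adjusted p under 0.05 and a log2 difference of at least 1. Over all 19938 genes 468 (2.35%) rose and 359 (1.8%) fell in spontaneous cells, with a median difference of -0.03. Of the 904 genes lower in Kdr-low arrays, 158 rose, 3 fell and 743 did not pass, with a median difference of 0.42. Of the 578 genes higher in Kdr-low arrays, 7 rose, 69 fell and 502 did not pass, with a median of -0.27. The genes lower in Kdr-low arrays were above day 0 in spontaneous cells for 759 of 904, passed or not, and the genes higher in Kdr-low arrays were below day 0 for 470 of 578. Without sorted CPC replicates 2 and 3, 4883 genes (24.5%) were lower and 4012 (20.1%) higher in cardiac replicate 1 than in every other cardiac or sorted array, of which 81 (0.406%) and 121 (0.607%) by at least 1. Of those lower 337 rose and 18 fell in spontaneous cells (median 0.16), and of those higher 50 rose and 284 fell (median -0.16). Without cardiac replicate 1, 1395 genes (7%) were lower and 1088 (5.46%) higher, of which 11 (0.0552%) and 0 by at least 1. Of those lower 180 rose and 3 fell (median 0.28), and of those higher 19 rose and 86 fell (median -0.15). No background level was measured, so differences of genes near or under the median signal of 6.61 may be understated.

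**Figure D5:**
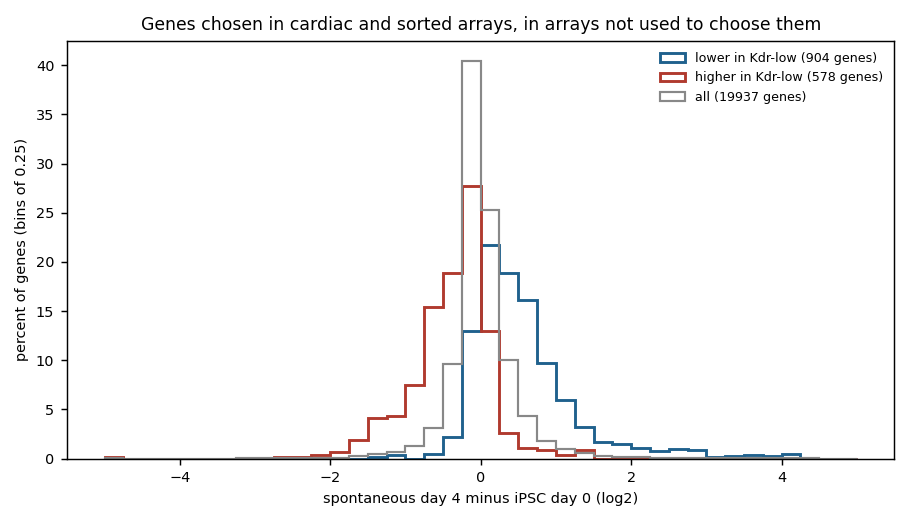
Share of genes (y axis, percent per bin of 0.25) by log2 difference of spontaneous day 4 from iPSC day 0 (x axis), for the 904 genes lower and the 578 genes higher in the Kdr-low arrays of the cardiac and sorted groups and for all genes but Kdr. The medians are 0.42, -0.27 and -0.03.

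Of the 9 genes with a gap of at least 1, 8 rose in spontaneous cells in limma. Nrp1 averaged 9.46 ± 0.69 in spontaneous and 5.44 ± 0.50 in day 0 arrays (SD, n = 3 each), a log2 difference of 4.01 ± 0.35 (SE) with a Benjamini-Hochberg adjusted p of 0.000171. Cxcr4 rose by 3.91 ± 0.20 (adjusted p = 2.27e-05), Klhl6 by 3.74 ± 0.14 (7.9e-06), Pmp22 by 3.70 ± 0.37 (0.000334) and Asb4 by 3.32 ± 0.20 (3.75e-05). Smaller rises were those of Foxf1, 2.60 ± 0.37 (adjusted p = 0.00184), and Bmper, 1.91 ± 0.29 (0.00235). Wnt5a rose by 2.83 ± 0.30 (0.000479), but its adjusted p was 0.0596 when all 12 arrays were fitted together. Igfbp4 did not pass, at 0.64 ± 0.31 (adjusted p = 0.18). In limma's test of a change beyond 1 (treat), Foxf1 and Bmper did not pass (adjusted p = 0.119 and 0.443).

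Most streak genes rose in spontaneous cells, 12 of 18 measured against 0 that fell. Mixl1 rose by 5.12 ± 0.14 (limma, Benjamini-Hochberg adjusted p = 2.08e-06) and Eomes by 4.29 ± 0.21 (1.79e-05). Mesp1 rose by 1.55 ± 0.17 (0.000549), Snai1 by 1.09 ± 0.14 (0.00118), which came to 0.99 without spontaneous replicate 1. Mesp1 and Snai1 did not pass in the fit of all 12 arrays (adjusted p = 0.175 and 0.198), nor by treat (adjusted p = 0.413 and 1). The cadherins Cdh11 and Cdh2 rose by 4.02 ± 0.32 and 3.99 ± 0.15 (adjusted p = 0.000121 and 7.9e-06). Cdh1 did not pass, at -0.68 ± 0.25 (adjusted p = 0.0851), and neither did Vim, at 0.48 ± 0.27 (0.238). Of 28 BMP and TGF-beta genes 12 rose and 0 fell, among them Smad1 (2.34 ± 0.11) and Msx1 (2.70 ± 0.22). Single list genes that separated the sets were named with the spontaneous arrays in view. Their p-values are therefore not independent of that choice.

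On the higher side, Gadd45a fell by 1.64 on the log2 scale in spontaneous cells (SE 0.14, limma adjusted p = 0.000175) and Slc35f2, a membrane transporter gene, by 1.43 (SE 0.14, 0.000323). Gadd45a, Slc35f2, Aass and Dppa4 were named by gaps over all day 4 arrays, the spontaneous ones included. Their p-values are therefore not independent of the choice and serve as description. Slc35f2 did not pass with all 12 arrays in the fit (adjusted p = 0.062). Dppa4 fell by 1.36 (SE 0.16, 0.000798), with an adjusted p of 0.0702 when all 12 arrays were fitted. Aass was at -0.90 ± 0.18 (adjusted p = 0.00795) and so missed the minimum difference of 1. By treat Gadd45a (adjusted p = 0.0938), Slc35f2 (0.497) and Dppa4 (1) did not pass. Of the 15 core pluripotency genes 9 fell and 1 rose, and of the 16 naive ones 13 fell and 0 rose. Pdgfra rose by 1.12 ± 0.17 (limma adjusted p = 0.00243), with 0.96 without spontaneous replicate 1 an adjusted p of 0.239 in the fit of all 12 arrays and of 1 by treat.

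Some genes differed from day 0 in Kdr-low and Kdr-high arrays alike. The levels of 19 genes were at least 1 above day 0 in every day 4 array, and 18 of these overlapped between the Kdr sets, with 1 lower in Kdr-low arrays. Another 22 genes were at least 1 below day 0 in every day 4 array, and all 22 overlapped between the sets. Over all genes only 3.22% were lower and 1.99% higher in every Kdr-low array. Overlap was thus the rule among all genes, and these counts set the 19 and 22 genes apart in no way. The genes described here were picked from the 8 with the widest distance in each direction because their roles are known, a choice made after the values were seen. Fgf5, a growth factor of primed epiblast, was at 8.79, 10.11 and 10.01 in Kdr-low arrays, at 8.27 to 9.72 in Kdr-high arrays and at 5.29 to 5.81 at day 0. Cyp26a1, which degrades retinoic acid, was at 8.43 to 10.58 in Kdr-low and at 10.34 to 11.35 in Kdr-high arrays, against 5.99 to 6.85 at day 0. Zfp42, a marker of naive pluripotent cells, was at 6.14 to 7.41 in Kdr-low and at 4.29 to 7.28 in Kdr-high arrays, below the 9.23 to 9.63 of day 0. Esrrb, a nuclear receptor of the naive state, was at 7.05 to 8.39 and 6.30 to 7.97 in the same sets, against 9.78 to 10.55 at day 0.

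Lpar4, which encodes a lysophosphatidic acid receptor and gives its name to the title of the series, did not follow the division. It was at 7.31, 9.12 and 7.83 in the Kdr-low arrays, against 8.79, 8.69 and 8.77 in spontaneous arrays, 9.15 and 8.65 in cardiac replicates 2 and 3 and 8.61 in sorted CPC replicate 1. Day 0 arrays held 5.34, 6.10 and 6.37, so all 9 day 4 arrays lay above day 0. Cardiac replicate 1 and sorted CPC replicate 3 were the lowest of the 9, while sorted CPC replicate 2 was nearly as high as the highest Kdr-high array. Of 14 lysophospholipid receptor and enzyme genes, 0 separated Kdr-low from Kdr-high arrays in either direction. This is near the shares over all genes, 3.22% lower and 1.99% higher, and sets the list apart in no way.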

How the data were processed

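Total RNA of 12 cell samples was hybridised to 1-colour arrays after biotin labelling, per the labels' protocols. Per the submitters' processing notes, the authors used Affymetrix Expression Console 1.3.1 and RMA, and they deposited log2 signals. The table held 35557 probe sets with values from 1.87 to 13.87 and medians per array between 6.09 and 6.26. For the probes, a genome build is not given in the sources. The platform annotation gave 1 symbol to 21789 probe sets, and for 999 genes with several the brightest was kept, which left 19938 genes. Precision is limited by the number of arrays.

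The members, the 42 gene lists, the tests and the alternatives were chosen with earlier results of these data known. Kdr-low and Kdr-high arrays were compared by gaps alone. Named were Kdr, Pdgfra, Lpar4, the 12 widest gaps each way (without predicted loci, small RNA and receptor genes of smell), up to 4 separating and 2 other members per described list and the 5 profiles nearest to Kdr or its mirror. Further list members and Mir genes were named after their values were seen. Spontaneous and day 0 arrays were fitted with limma 3.58.1 (R 4.3.3), with an intensity trend and two-sided p-values adjusted over 19938 genes. The residual degrees of freedom were 4. On simulated data with 200 changed genes the fit recovered 46.2% of log2 changes of 1, 98.2% of 1.5 and 100% of 2 and 3, with 1 false call. Alternatives were other gaps, scalings, filters, prior variances, a replicate block, a fit of all 12 arrays, a test against a minimum change and each array left out.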

Additional observations from a re-analysis of the deposited data

Results flagged for a closer look

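The cardiac and sorted arrays divided in opposite directions for 8 genes, each lower by at least 1 in cardiac replicate 1 than in the other cardiac arrays and higher by at least 1 in sorted CPC replicates 2 and 3 than in sorted CPC replicate 1. They were 7.6% of the genes lower by at least 1 in cardiac replicate 1 and 4.1% of those higher in the sorted replicates. The difference between the directions was not tested, and the genes were chosen after their values were seen. Mir302a and Mir302c, precursor genes of a microRNA cluster of pluripotent and primed cells, differed most in the cardiac group. For Mir302a cardiac replicate 1 lay -3.73 from the nearest other cardiac array, and the nearest sorted CPC replicate lay 1.07 above sorted CPC replicate 1. For Mir302c these distances were -3.47 and 1.45. Mir302c was at 5.09, 6.12 and 7.32 in the Kdr-low arrays (cardiac replicate 1, then sorted CPC replicates 2 and 3). Kdr-high arrays held 9.71, 6.29 and 7.03 (spontaneous), 9.65 and 8.55 (cardiac replicates 2 and 3) and 4.68 (sorted CPC replicate 1), against 4.46, 4.13 and 3.39 at day 0. The probe sets detect precursor RNA, so the mature microRNAs were not measured. Mature 3p arms of the cluster, as RefSeq lists them on chromosome 3 of GRCm38.p6, are shown with bases 2 to 8, the seed, in capitals.
mmu-miR-302b-3p: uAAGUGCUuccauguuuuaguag
mmu-miR-302c-3p: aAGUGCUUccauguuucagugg
mmu-miR-302d-3p: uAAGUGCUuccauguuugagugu
The miR-302b-3p and miR-302d-3p arms share 1 seed, and the listed miR-302c-3p arm starts 1 base later, so its bases 2 to 8 are shifted.

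Igfbp3, a binding protein of insulin-like growth factors, had distances of -2.12 in the cardiac and 1.27 in the sorted group, the same order as above. The interferon-inducible GTPase genes Gbp2b and Irgm1 had -1.19 and 1.28, and -1.12 and 1.67. Kcnj3, a potassium channel gene, had -1.09 and 1.32. Sema3e, a semaphorin that repels endothelial cells, had -1.04 and 1.27, and St6gal2, a sialyltransferase gene, -1.37 and 1.30.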

How the results depend on the processing

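Counts of genes depended most on the minimum gap. With any gap, 0.5 and 1.5, the 9 day 4 arrays gave 641, 34 and 5 genes lower and 397, 1 and 0 higher in Kdr-low arrays. The 6 cardiac and sorted arrays gave 904, 37 and 5 lower and 578, 4 and 0 higher. Within the cardiac group there were 6010, 473 and 45 lower and 5949, 643 and 17 higher, and 78 higher among genes over the median signal. Within the sorted group there were 6784, 343 and 55 lower and 4641, 715 and 56 higher, with 2476, 136 and 17 lower and 2112, 171 and 0 higher shared by both groups. Without the libraries sorted CPC replicates 2 and 3, chosen after the data were seen, counts at a gap of 1 were 74 lower and 101 higher in the day 4 arrays and 81 lower and 121 higher in the cardiac and sorted arrays. Of genes lower by any gap in these cardiac and sorted arrays 337 then rose and 18 fell in spontaneous cells, and of those higher 50 rose and 284 fell.

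With each array left out, lower and higher counts ran from 9 to 29 and 0 to 1 in the day 4 arrays, 9 to 60 and 0 to 4 in the 6 cardiac and sorted arrays, 105 to 445 and 124 to 338 within the cardiac group, 106 to 364 and 194 to 534 within the sorted group, and 44 to 83 and 13 to 45 for genes shared by both. Cardiac replicate 3 gave the highest of the cardiac and shared counts and the 60, and sorted CPC replicate 2 those of the sorted group. Without sorted CPC replicate 2 the 6 arrays gave 34 lower genes and the shared higher genes numbered 20. Without sorted CPC replicate 3 the sorted group gave 369 higher and 34 were shared, and without sorted CPC replicate 1 the 6 arrays gave 15 lower genes. Fewer arrays leave fewer chances to overlap by construction.

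Ranges of genes lower or higher in Kdr-low arrays also cover their choice without cardiac replicate 1, an alternative added after the data were seen. It chose 1395 lower and 1088 higher genes in place of 904 and 578, and gave the 180, 19 and 86. For spontaneous against day 0, 431 to 519 genes rose and 323 to 386 fell with each array left out. A test against a log2 change of 1 (treat) called 91 and 59, and no minimum change 2471 and 1956. Of the genes lower in Kdr-low arrays (904 in the main choice) 145 to 180 rose and 2 to 4 fell. By treat 48 and 0 of the 904 did so, and without a minimum 481 and 13. Of the higher genes (578 in the main choice) 6 to 19 rose and 64 to 86 fell. By treat 0 and 8 of the 578 did so, and without a minimum 23 and 243. Of the 9 genes 8 to 9 rose and 0 fell, while genes higher by at least 1 numbered 0 throughout. Replicates with the same number did not pair, as deviations correlated at 0.067, -0.0462 and 0.175, and a replicate block called 466 higher and 361 lower genes. Other scalings, the mean of probe sets, other prior variances and the fit of all 12 arrays kept each of these counts within 1.5 times. Of the gaps of the 24 genes named by gap, 350 values under alternatives stayed within the spread, 31 moved beyond it and 0 reversed. Alternatives that left arrays out could not reverse a gap, since it can then only widen.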
